A study of Mus musculus and Homo sapiens with 8 samples.

Results

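The SLC25 genes encode the mitochondrial carriers, the transporters that move nucleotides, organic acids, amino acids and cofactors across the inner mitochondrial membrane. The members described here are all genes of the deposited expression table whose symbol starts with Slc25a and a digit, with exact repeats dropped. This gave 35 of the 13359 genes in the table. RefSeq lists 47 protein-coding mouse genes with such a symbol. The other 12, among them the paralogs Slc25a18, Slc25a21 and Slc25a31, were not analysed here.

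RNA-seq was made from crypts of the small intestine of C57BL/6 mice aged 2 months. The controls were Apc Min mice, which are heterozygous for a truncating mutation of the Wnt pathway regulator Apc. The other group, Apc Min Zmynd8 IEC-/-, carries the same Apc allele and is labelled as lacking the chromatin reader Zmynd8 in intestinal epithelial cells. No source used here names the Cre driver of that deletion. Each group had 2 libraries and each library pooled 3 mice, so that p-values measure the spread between pools. The genotype comparison asked how expression in these crypts differed between the groups. The series also holds 4 ChIP-seq libraries of the human colorectal cancer line HCT116, which were not used here.

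Carriers of this family share a fold made of repeated membrane-spanning segments and mostly work as exchangers, taking 1 solute in while another leaves. The adenine nucleotide translocases hand ATP made by respiration to the cytosol in exchange for ADP, the phosphate carrier supplies the phosphate for it, and the citrate carrier exports the carbon used for fatty acid and sterol synthesis. In the small intestine these exchanges also serve citrulline production from glutamine and the fat oxidation of villus enterocytes.

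The libraries rested on 43457247 and 47500041 reads on listed genes in the Apc Min controls, and on 45304190 and 46779794 reads in the libraries labelled Zmynd8 IEC-/-. Zmynd8 itself was not lower in the latter. It stood at 6.94 and 4.73 FPKM (reads per length of gene and per total of the library) in Apc Min against 7.30 and 7.65 FPKM in the libraries labelled Zmynd8 IEC-/- (log2 fold change 0.33, SE 0.18, limma adjusted p = 0.293). Gene-level values do not show single exons, so every direction below rests on the labels. Crypt markers were present in all libraries, as the sum of 5 stem cell genes ran from 128 to 209 FPKM. Enterocyte markers were abundant too, and 12 of 12 stood higher in both libraries labelled Zmynd8 IEC-/- than in both controls (14.9% of all genes did). Their summed levels were 13927 and 15865 FPKM in Apc Min against 22276 and 25851 FPKM in the libraries labelled Zmynd8 IEC-/-. All 8 proliferation markers stood lower there, at 222 and 204 FPKM in sum against 153 and 154 FPKM, and so did all 5 stem cell markers and 5 of 6 Paneth cell markers. Of all genes tested, 48.5% stood below both controls in both of these libraries. Fabp6, a bile acid binding protein of ileal enterocytes, did not follow the groups: it stood at 1459 and 7606 FPKM in control replicates 1 and 2 and at 2250 and 134 FPKM in replicates 1 and 2 labelled Zmynd8 IEC-/-. Control replicate 2 and replicate 2 labelled Zmynd8 IEC-/- therefore stood at the ends of the ileal marker levels. In bulk RNA, fewer cells of a type and less RNA per cell cannot be told apart.

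All 35 members passed the filter of at least 1 FPKM in at least 2 libraries, and 12948 genes were tested. None of the 35 passed an adjusted p of 0.05 in limma, where 0.726% of all genes did (0.595% higher and 0.131% lower). At an unadjusted p under 0.05, 4 members were on the higher side (Slc25a45, Slc25a34, Slc25a5 and Slc25a36, against 7.49% of all genes) and 7 on the lower side (among them Slc25a20, Slc25a35, Slc25a17, Slc25a23, Slc25a13 and Slc25a1, against 19.1% of all genes). Both libraries labelled Zmynd8 IEC-/- stood above both controls in 9 members (25.7%, against 14.9% of all genes) and below both in 12 (34.3%, against 48.5% of all genes), and the groups overlapped in 14. With voom on recovered whole reads, Slc25a45 passed on the higher side (adjusted p = 0.0419), where 1.41% of all genes did, and no member passed on the lower side, where 0.185% did.

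Members stood in both directions. The median log2 fold change of the 35 members, Apc Min Zmynd8 IEC-/- over Apc Min on the log2(FPKM + 1) scale, was -0.05, beside -0.15 over all genes tested, with 18 members below 0 and 17 above. Because the median of all genes lay below 0, scaling the libraries to a common median moved it up by 0.147, and quantile normalization moved it by 0.129. The members' median then turned to 0.08 and 0.09. After median-ratio scaling 14 members stood higher in all pairings of libraries (28.2% of all genes did) and 7 lower (28.0% of all genes). After quantile normalization 13 stood higher (25.3% of all genes) and 9 lower (31.0% of all genes), and on the voom scale 14 stood higher (27.9% of all genes) and 8 lower (28.3% of all genes). Directions of small size, in Slc25a25, Slc25a46, Slc25a32, Slc25a38 and Slc25a26, turn with the scaling and are given below as values only. Groups that overlapped as deposited stood higher in all pairings after median-ratio scaling in Slc25a3, Slc25a10, Slc25a26, Slc25a28 and Slc25a44, and groups that stood lower then overlapped in Slc25a1, Slc25a12, Slc25a24, Slc25a25 and Slc25a46. As deposited, 12 of 12 enterocyte markers stood higher in the same libraries (14.9% of all genes) and 8 of 8 proliferation markers lower (48.5% of all genes). The part of cell makeup in the members' counts was not tested.

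**Figure D1:**
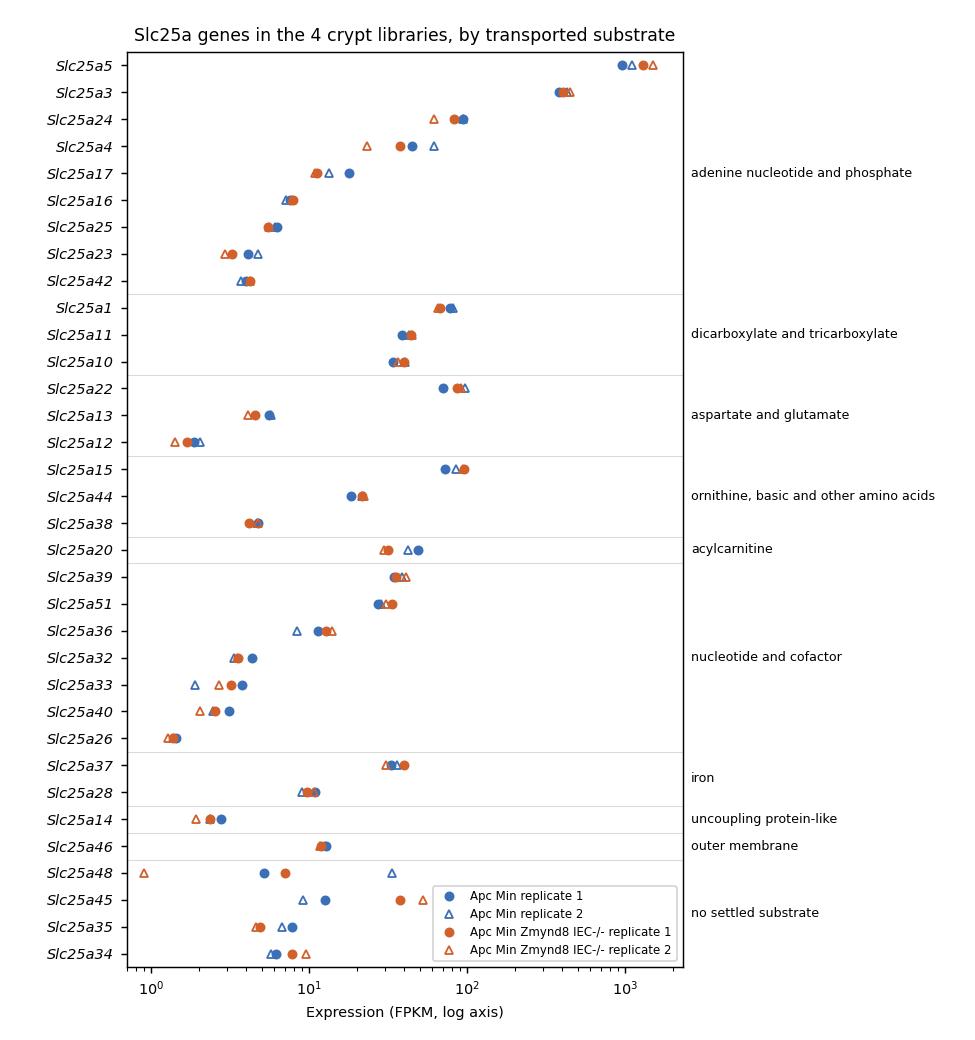
Expression of 34 of the 35 Slc25a genes in each of the 4 libraries (x axis, FPKM on a log axis), grouped by what the carrier transports and ordered within a group by the control mean. Filled circles are replicate 1 and open triangles replicate 2 of each group; most genes show 4 points close together, while Slc25a45 has its groups far apart and Slc25a48 spreads from 0.903 to 33.3 FPKM.

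**Figure D2:**
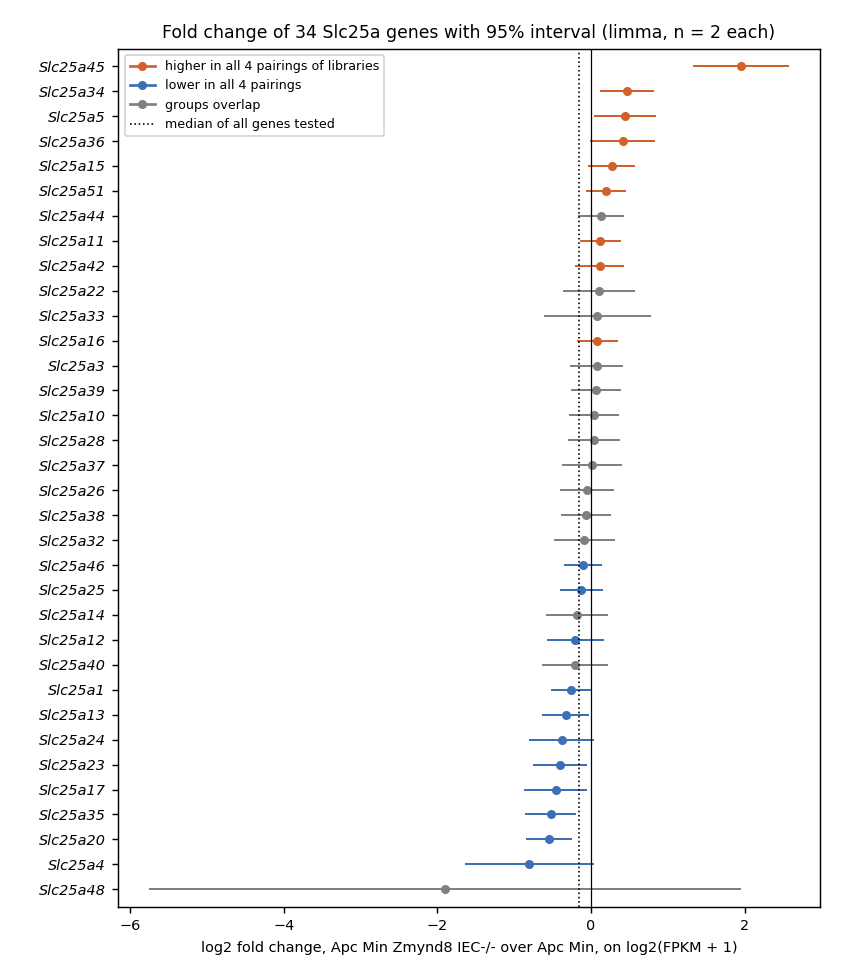
Log2 fold change of 34 of the 35 members, each with its 95% interval from limma (x axis, log2(FPKM + 1) scale), ordered by size, with the dotted line at the median of all genes tested. Slc25a45 at 1.95 stands apart on the right, and the interval of Slc25a48 on the left runs from -5.74 to 1.94.

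RefSeq promoter windows (GRCm38.p6) are shown for 4 members the results turn on: Slc25a45, with the smallest p of all members, Slc25a5, the most abundant, the citrate carrier Slc25a1, whose pathway partner Acly passed the test, and Slc25a20, with the smallest p on the lower side. Each window holds the 250 bases before the RefSeq start, 5′ to 3′ on the gene's strand, with every match to a searched motif in capitals. The windows lie at chr19:5877572-5877821 (plus strand, Slc25a45), chrX:36795347-36795596 (plus strand, Slc25a5), chr16:17928220-17928469 (minus strand, Slc25a1) and chr9:108661886-108662135 (plus strand, Slc25a20). The deposited table starts Slc25a45 at 5877799 and Slc25a20 at 108662098, inside these windows.
Slc25a45: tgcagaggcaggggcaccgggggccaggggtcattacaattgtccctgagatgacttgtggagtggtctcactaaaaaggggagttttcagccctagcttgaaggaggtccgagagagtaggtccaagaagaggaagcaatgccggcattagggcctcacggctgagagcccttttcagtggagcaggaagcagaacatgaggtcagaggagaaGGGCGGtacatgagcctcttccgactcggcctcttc
Slc25a5: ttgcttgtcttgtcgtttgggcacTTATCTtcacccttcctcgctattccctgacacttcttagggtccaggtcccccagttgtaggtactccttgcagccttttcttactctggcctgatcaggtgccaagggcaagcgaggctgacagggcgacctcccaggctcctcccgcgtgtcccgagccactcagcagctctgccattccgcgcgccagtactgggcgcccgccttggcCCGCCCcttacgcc
Slc25a1: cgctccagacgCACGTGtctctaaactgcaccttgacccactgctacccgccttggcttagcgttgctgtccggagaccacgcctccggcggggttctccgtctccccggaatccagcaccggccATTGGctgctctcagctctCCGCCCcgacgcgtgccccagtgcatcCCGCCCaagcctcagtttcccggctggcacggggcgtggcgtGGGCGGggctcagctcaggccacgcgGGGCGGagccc
Slc25a20: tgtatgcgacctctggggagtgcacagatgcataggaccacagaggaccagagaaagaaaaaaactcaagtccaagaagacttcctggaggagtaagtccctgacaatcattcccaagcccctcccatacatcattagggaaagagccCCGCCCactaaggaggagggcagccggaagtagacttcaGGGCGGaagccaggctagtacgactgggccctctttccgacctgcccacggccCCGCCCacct

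Motifs were searched on both strands in the 35 windows of the 27 members that had one and in all 32851 windows of the same length. The full set was not limited to genes expressed in these crypts, as all members were, so the 2 sets are unlike. A gene could also count with more than 1 window. The GC box GGGCGG, the site of Sp1-type factors, was in 77.1% of the members' windows, against 32.7% of all windows, and CCAAT was in 45.7%, against 33.8%. The E-box CACGTG was in 7 of the members' windows (6.02% of all windows), the GATA word AGATAA in 1 (9.99%) and the CDX word TTTATG in 2 (10.8%). No member window held TATAAA (12.4% of all windows), the sterol element word TCACNCCAC (1.05%) or the HNF4 word CAAAGTCCA (0.384%). None of these words contains another. The members' windows had a median of 57.2% G and C, beside 52.4% over all windows. In the printed windows, Slc25a45 holds 1 GC box, 36 to 31 bases before the start, and Slc25a5 holds 1 as well, 14 to 9 bases before it, with the GATA word on the opposite strand 226 to 221 bases before it. Slc25a20 holds 3 GC boxes, and Slc25a1 holds 4 with 1 CCAAT box and 1 E-box. A match is a run of letters, not a bound site.

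Slc25a45 had the largest difference between the groups on the log2(FPKM + 1) scale and the smallest p of all members. Slc25a48, whose groups overlapped, had the larger ratio of means (4.84, Apc Min over Apc Min Zmynd8 IEC-/-), and with a pseudocount of 0.1 the larger log2 fold change as well (-2.31 against 2.04). Slc25a45 is a carrier without a settled substrate, for which methylated amino acids, among them the carnitine precursor trimethyllysine, have been proposed as cargo. The gene (chr19:5877799-5885768, plus strand) stood at 12.6 and 9.18 FPKM in control replicates 1 and 2 and at 37.3 and 52.7 FPKM in replicates 1 and 2 labelled Zmynd8 IEC-/-. The groups did not overlap, and the lower library labelled Zmynd8 IEC-/- was well above the higher control. Mean levels were 10.9 ± 2.38 FPKM and 45.0 ± 10.9 FPKM (SD, n = 2 each), a ratio of 4.14. The log2 fold change was 1.95 (SE 0.23, 95% interval 1.34 to 2.56), and the limma adjusted p of 0.0587 missed the threshold.

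Over the 12 alternative analyses the log2 fold change of Slc25a45 ran from 1.71 to 2.22 and the adjusted p from 0.0419 to 0.283; only voom gave a value under 0.05. Without control replicate 2 it was 1.74, and without replicate 2 labelled Zmynd8 IEC-/- 1.71. In the authors' deposited table the log2 fold change of Slc25a45 was 2.05 with a q-value of 2.76e-04, by a test that the sources used here do not give. Behind these values were 1439 and 1148 reads in Apc Min, against 4453 and 6481 reads under the Zmynd8 IEC-/- label. Of its nearest measured neighbours on chromosome 19, none stood higher by as much: on one side Frmd8, 2526 bases away, had a log2 fold change of -0.09 and Neat1 one of -0.27, and on the other side Dpf2 had 0.03 and Gm42067 -0.26. Among the markers of cell types, the enterocyte list stood higher in the same 2 libraries, and the summed levels of 5 proximal small-intestine genes were 90.4 and 73.2 FPKM in the controls against 225 and 346 FPKM. Adh6a carried most of that sum, at 49.8 and 44.3 FPKM against 173 and 283 FPKM. Gata4 and Gata6 stood higher in all pairings too, Cybrd1 overlapped between the groups, and Onecut2 stood lower, at 4.18 and 0.246 FPKM against 0.201 and 0.227 FPKM. The part of these markers in the difference of Slc25a45 was not tested.

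**Figure D3:**
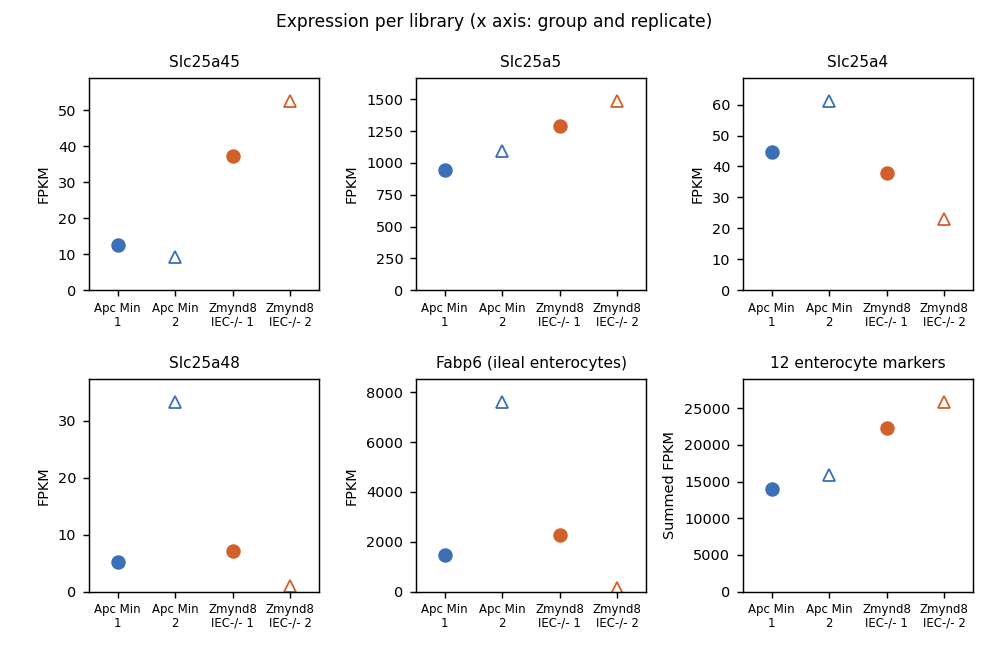
Expression in each library (y axis, FPKM from 0; summed FPKM in the last panel) of 4 Slc25a genes, of the ileal gene Fabp6 and of 12 enterocyte markers. Slc25a45 and Slc25a5 stand higher in both libraries labelled Zmynd8 IEC-/- and Slc25a4 lower, as the enterocyte sum stands higher; Slc25a48 has the library order of Fabp6, highest in control replicate 2 and lowest in replicate 2 labelled Zmynd8 IEC-/-.

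The other carriers without a settled substrate went separate ways. Slc25a34 (chr4:141618819-141624002, minus strand) stood at 6.17 and 5.72 FPKM in Apc Min against 7.81 and 9.54 FPKM in the libraries labelled Zmynd8 IEC-/-. Its groups did not overlap, and the log2 fold change was 0.47 (SE 0.13, limma adjusted p = 0.125). Its closest relative by sequence, Slc25a35, stood the other way, at 7.82 and 6.74 FPKM in Apc Min against 4.90 and 4.57 FPKM in the libraries labelled Zmynd8 IEC-/- (-0.53, SE 0.12, limma adjusted p = 0.104). Slc25a35 shares 33 bases with Rangrf on the opposite strand, whose own log2 fold change was -0.58, and without stranded counting those reads cannot be assigned.

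Slc25a48, for which choline has been proposed as cargo, varied more between libraries of 1 group than between groups. The gene (chr13:56437964-56472367, plus strand) stood at 5.20 and 33.3 FPKM in control replicates 1 and 2 and at 7.05 and 0.903 FPKM in replicates 1 and 2 labelled Zmynd8 IEC-/-, from 590, 4125, 833 and 110 reads. The groups overlapped, since control replicate 1 lay below replicate 1 labelled Zmynd8 IEC-/-. The log2 fold change was -1.90 (SE 1.26, limma adjusted p = 0.401, 95% interval -5.74 to 1.94). Without control replicate 2 it was -0.66, and without replicate 2 labelled Zmynd8 IEC-/- -0.86; without either replicate 1 it was larger, at -3.13 (control) and -2.94. Slc25a48 was the only member whose 4 libraries stood in the order of the ileal gene Fabp6, an order that 397 of all genes tested shared (3.07%). The summed level of the 3 ileal markers measured was 1558 and 7849 FPKM in Apc Min against 2375 and 161 FPKM in the libraries labelled Zmynd8 IEC-/-. Their part in the spread of Slc25a48 was not tested.

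Among the 9 measured carriers of adenine nucleotides, coenzyme A and phosphate, 3 stood higher in all pairings of libraries (33.3%, against 14.9% of all genes), 5 lower (55.6%, against 48.5% of all genes) and 1 overlapped, and none passed the adjusted test. Slc25a5 encodes ANT2, the adenine nucleotide translocase of most epithelia and of growing cells, and was the most abundant member in every library. It stood (chrX:36795597-36798808, plus strand) at 948 and 1094 FPKM in Apc Min against 1289 and 1489 FPKM in the libraries labelled Zmynd8 IEC-/-, with no overlap. Mean levels were 1021 ± 104 and 1389 ± 141 FPKM (SD, n = 2 each), a ratio of 1.36. The log2 fold change was 0.44 (SE 0.15, limma adjusted p = 0.163, 95% interval 0.05 to 0.84). In the authors' deposited table the q-value of Slc25a5 was 5.39e-13, and with Slc25a45 it was 1 of 2 members with a q under 0.05, where 2.13% of all genes had one. RefSeq lists 2 pseudogenes under a Slc25a symbol or synonym. How alike they are to Slc25a5 was not checked, so its value is uncertain where the counting could split reads with a near-identical copy.

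Slc25a4 encodes ANT1, the translocase that predominates in heart and skeletal muscle, and stood in the opposite direction. It was at 44.6 and 61.3 FPKM in Apc Min against 37.8 and 23.1 FPKM in the libraries labelled Zmynd8 IEC-/- (chr8:46207339-46211009, minus strand). Both libraries labelled Zmynd8 IEC-/- lay below both controls, with the lowest value in replicate 2. The log2 fold change was -0.80 (SE 0.30, limma adjusted p = 0.193, 95% interval -1.62 to 0.02), and -0.46 without replicate 2 labelled Zmynd8 IEC-/-. The ratio of Slc25a5 to Slc25a4 was 21.3 and 17.9 in Apc Min, against 34.1 and 64.4 under the Zmynd8 IEC-/- label, so that ANT2 RNA exceeded ANT1 RNA in every library and by more in the latter. This ratio within a library does not move with a scaling by 1 factor per library. It can move with quantile normalization, after which the log2 fold changes were 0.27 for Slc25a5 and -0.74 for Slc25a4. No test was made of the ratio: with 2 libraries against 2 the smallest exact two-sided permutation p is 0.333. The 8 stroma and muscle markers summed to 300 and 421 FPKM in Apc Min against 310 and 281 FPKM in the libraries labelled Zmynd8 IEC-/-. Like Slc25a4, the sum was highest in control replicate 2 and lowest in replicate 2 labelled Zmynd8 IEC-/-, but no single marker was both. Acta2, Des and Myh11 were highest in control replicate 2 and lowest in control replicate 1. Col1a1, Col1a2, Col3a1, Vim and Pdgfra were highest in control replicate 1. Groups overlapped in 7 of the 8, all 8 had log2 fold changes below 0, and their median was -0.23, beside -0.15 over all genes. Their part in the difference of Slc25a4 was not tested.

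Slc25a3, the phosphate carrier, was second in level, at 380 and 426 FPKM in Apc Min against 401 and 447 FPKM in the libraries labelled Zmynd8 IEC-/-. The groups overlapped, with a log2 fold change of 0.07 (SE 0.13). Slc25a24, a calcium-regulated ATP-magnesium and phosphate carrier that sets the adenine nucleotide pool of the matrix, stood at 93.4 and 93.5 FPKM in Apc Min against 82.4 and 62.0 FPKM in the libraries labelled Zmynd8 IEC-/-. Its controls nearly coincided and the difference came mostly from replicate 2 labelled Zmynd8 IEC-/- (-0.38, SE 0.16, limma adjusted p = 0.202). It was -0.18 without that replicate and -0.59 without replicate 1 of the same label, and after median-ratio scaling the groups overlapped (-0.21). The related Slc25a23 had 4.09 and 4.75 FPKM in Apc Min against 3.24 and 2.94 FPKM in the libraries labelled Zmynd8 IEC-/- (-0.41, SE 0.13, limma adjusted p = 0.153). The third of these carriers, Slc25a25, ranged from 5.48 to 6.21 FPKM, and its log2 fold change of -0.13 was 0.02 after median-ratio scaling.

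Slc25a17, which carries coenzyme A and other cofactors in the peroxisomal membrane, stood at 17.9 and 13.3 FPKM in Apc Min against 11.1 and 10.9 FPKM in the libraries labelled Zmynd8 IEC-/-. Its 2 libraries labelled Zmynd8 IEC-/- were close together and the controls were not (-0.46, SE 0.16, limma adjusted p = 0.159). Without control replicate 2, it had a log2 fold change of -0.66, and without control replicate 1 one of -0.26. Slc25a42, the coenzyme A and ADP exchanger, stood at 3.98 and 3.68 FPKM in Apc Min against 4.21 and 4.22 FPKM in the libraries labelled Zmynd8 IEC-/- (0.11, SE 0.12). Slc25a16, also tied to coenzyme A supply, stood at 7.51 and 7.14 FPKM in Apc Min against 7.90 and 7.74 FPKM in the libraries labelled Zmynd8 IEC-/- (0.08, SE 0.10).

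The citrate carrier Slc25a1, which exports citrate for lipid synthesis, stood at 78.1 and 81.2 FPKM in Apc Min against 67.2 and 65.4 FPKM in the libraries labelled Zmynd8 IEC-/- (chr16:17925211-17928219, minus strand). The groups did not overlap and each was narrow, but the difference was small (-0.26, SE 0.09, limma adjusted p = 0.173); after median-ratio scaling it was -0.09 and the groups overlapped. Acly, which cleaves the exported citrate to acetyl-CoA, fell from 35.8 and 33.2 FPKM to 19.1 and 18.1 FPKM (-0.86, SE 0.10, limma adjusted p = 0.0450). Fasn, the fatty acid synthase, stood at 22.2 and 18.0 FPKM in Apc Min against 9.69 and 9.52 FPKM in the libraries labelled Zmynd8 IEC-/- (-0.99, SE 0.13, limma adjusted p = 0.0573). Of the 7 genes listed for citrate export and use, 1 passed on the lower side (0.131% of all genes did) and none on the higher. In all pairings 4 stood lower (Acly, Fasn, Acaca and Me1; 57.1%, against 48.5% of all genes) and 3 higher (Cs and Idh1 among them; 42.9%, against 14.9% of all genes). The list's median was -0.60 beside -0.15 over all genes.

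The other dicarboxylate carriers differed by less. Slc25a10, which exchanges malate or succinate for phosphate, had 34.1 and 40.3 FPKM in Apc Min against 39.7 and 36.3 FPKM in the libraries labelled Zmynd8 IEC-/- (0.04, SE 0.12). Slc25a11, the oxoglutarate and malate exchanger of the malate-aspartate shuttle, had 38.5 and 42.8 FPKM in Apc Min against 44.2 and 44.5 FPKM in the libraries labelled Zmynd8 IEC-/- (0.12, SE 0.10), with groups that did not overlap. It shares 181 bases with Rnf167 on the opposite strand. The ratio of Slc25a10 to Slc25a1 was 0.436 and 0.496 in Apc Min, against 0.592 and 0.556 under the Zmynd8 IEC-/- label.

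Of the aspartate and glutamate exchangers, Slc25a13 (citrin) was the more abundant in all 4 libraries. It stood at 5.59 and 5.73 FPKM in Apc Min against 4.52 and 4.11 FPKM in the libraries labelled Zmynd8 IEC-/- (-0.33, SE 0.11, limma adjusted p = 0.165). Its paralog Slc25a12 (aralar), the form of brain and muscle, stood at 1.86 and 2.02 FPKM in Apc Min against 1.69 and 1.42 FPKM in the libraries labelled Zmynd8 IEC-/- (-0.21, SE 0.14). Both stood lower in all pairings, but the groups of Slc25a12 overlapped after median-ratio scaling (-0.09), quantile normalization (-0.07) and voom (-0.15), and without replicate 2 labelled Zmynd8 IEC-/- its value was -0.13. The ratio of Slc25a13 to Slc25a12 overlapped between the groups, from 2.68 to 3.01. Among the 4 enzymes of the same shuttle, none passed the adjusted test in either direction. Mdh1, Mdh2 and Got1 stood higher in all pairings (log2 fold changes 0.38, 0.78 and 0.50; 75.0%, against 14.9% of all genes). Got2 stood lower (-0.41; 25.0%, against 48.5% of all genes).

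Slc25a22, which imports glutamate with a proton, ranked among the 6 members with a mean over 50 FPKM. It had 70.0 and 97.1 FPKM in Apc Min against 86.6 and 91.2 FPKM in the libraries labelled Zmynd8 IEC-/-, so that both of the latter lay between the controls (0.11, SE 0.18). Slc25a15, the ornithine and citrulline exchanger of the urea cycle and of intestinal citrulline production, stood higher in all pairings, with 72.6 and 84.4 FPKM in Apc Min against 95.7 and 93.5 FPKM in the libraries labelled Zmynd8 IEC-/- (chr8:22375550-22398621, minus strand). Its log2 fold change was 0.27 (SE 0.12, limma adjusted p = 0.213), and 0.16 without control replicate 1. Of 7 enzymes around it, none passed the test in either direction. Arg2 (0.97, limma adjusted p = 0.0983), Otc (0.47) and Oat (0.16) stood higher in all pairings (42.9%, against 14.9% of all genes). Ass1 (-0.86) and Asl (-0.35) stood lower (28.6%, against 48.5% of all genes), and Cps1 (0.12) and Aldh18a1 (0.06) overlapped between the groups. Arg2, Otc and Oat make or use ornithine in the matrix, and Ass1 and Asl turn citrulline to arginine in the cytosol. A link between place and direction was not tested.

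Slc25a44, a carrier of branched-chain amino acids, had 18.3 and 21.6 FPKM in Apc Min against 21.5 and 22.2 FPKM in the libraries labelled Zmynd8 IEC-/-, and its groups overlapped (0.13, SE 0.11). Slc25a38, which imports glycine for haem synthesis, ranged from 4.15 to 4.74 FPKM, with the lowest and the highest value both in libraries labelled Zmynd8 IEC-/- (-0.07, and 0.08 after median-ratio scaling).

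Slc25a20, the carnitine-acylcarnitine exchanger that brings fatty acyl groups into the matrix for oxidation, had the smallest p among the members on the lower side. The gene (chr9:108662098-108684641, plus strand) stood at 48.4 and 42.0 FPKM in Apc Min against 31.6 and 29.6 FPKM in the libraries labelled Zmynd8 IEC-/-. The groups did not overlap, the means being 45.2 ± 4.59 and 30.6 ± 1.38 FPKM (SD, n = 2 each). The log2 fold change was -0.55 (SE 0.11, limma adjusted p = 0.0935, 95% interval -0.83 to -0.26), and -0.39 relative to the median of all genes. Of 7 genes of the carnitine shuttle and fat oxidation, none passed in either direction. In all pairings 3 stood higher (Cpt2, Acadm and Crat, the last at 0.44; 42.9%, against 14.9% of all genes). On the lower side were 2 (Cpt1a and Acadl, the latter at -0.59; 28.6%, against 48.5% of all genes). The list's median was 0.11, beside -0.15 over all genes. Cpt1a, the entry step before Slc25a20, stood at 40.7 and 33.9 FPKM in Apc Min against 31.9 and 25.9 FPKM in the libraries labelled Zmynd8 IEC-/- (-0.36). The step after it, Cpt2, stood slightly the other way, with 44.8 and 38.5 FPKM against 45.8 and 46.2 FPKM (0.14).

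The carriers of nucleotides and cofactors were mostly of low level, and 5 of 8 overlapped between the groups. Slc25a36, a pyrimidine nucleotide carrier, stood at 11.4 and 8.42 FPKM in Apc Min against 12.7 and 14.0 FPKM in the libraries labelled Zmynd8 IEC-/- (0.41, SE 0.16, limma adjusted p = 0.187; 0.21 without control replicate 2). It overlaps an unnamed gene on the opposite strand over 3285 bases, so its value is uncertain. Its relative Slc25a33 had 3.73 and 1.90 FPKM in Apc Min against 3.18 and 2.69 FPKM in the libraries labelled Zmynd8 IEC-/-, both of the latter between the controls. Slc25a51, the importer of NAD, stood at 27.2 and 28.5 FPKM in Apc Min against 33.6 and 30.6 FPKM in the libraries labelled Zmynd8 IEC-/-, with no overlap (0.20, SE 0.10, limma adjusted p = 0.259).

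The glutathione importer Slc25a39 and its paralog Slc25a40 overlapped between the groups. Slc25a39 had 34.2 and 38.4 FPKM in Apc Min against 35.3 and 40.8 FPKM in the libraries labelled Zmynd8 IEC-/- (0.07, SE 0.12). Slc25a40 had 3.11 and 2.48 FPKM in Apc Min against 2.53 and 2.04 FPKM in the libraries labelled Zmynd8 IEC-/- (-0.21, SE 0.16). In every library the first exceeded the second, by a ratio of 11.0 to 19.98 whose groups overlapped too. The folate and FAD carrier Slc25a32 had 4.32 and 3.33 FPKM in Apc Min against 3.55 and 3.48 FPKM in the libraries labelled Zmynd8 IEC-/-. The carrier of S-adenosylmethionine, Slc25a26, was the lowest member in mean level, at 1.44 and 1.37 FPKM in Apc Min against 1.38 and 1.27 FPKM in the libraries labelled Zmynd8 IEC-/-, and shares 131 bases with Lrig1 on the opposite strand.

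Both mitoferrins, which import iron for haem and iron-sulfur clusters, overlapped between the groups. Slc25a37 (mitoferrin 1, the form of red cell precursors) had 33.0 and 36.1 FPKM in Apc Min against 39.6 and 30.7 FPKM in the libraries labelled Zmynd8 IEC-/- (0.01, SE 0.15). Slc25a28 (mitoferrin 2) had 10.8 and 9.0 FPKM in Apc Min against 9.61 and 10.7 FPKM in the libraries labelled Zmynd8 IEC-/- (0.04, SE 0.13). The 4 erythroid markers summed to 25.7 and 65.5 FPKM in Apc Min against 37.1 and 34.6 FPKM in the libraries labelled Zmynd8 IEC-/-. Their part in the level of Slc25a37 was not tested. Of 9 genes of haem and iron-sulfur synthesis, none passed in either direction, 1 stood higher in all pairings (11.1%, against 14.9% of all genes) and 2 lower (22.2%, against 48.5% of all genes). The uncoupling protein-like Slc25a14 had 2.78 and 2.36 FPKM in Apc Min against 2.37 and 1.92 FPKM in the libraries labelled Zmynd8 IEC-/- (-0.18, SE 0.15). Slc25a46, a family member of the outer membrane that acts in mitochondrial shape, ranged from 11.7 to 12.8 FPKM, and its log2 fold change of -0.10 was 0.06 after median-ratio scaling.

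**Figure D4:**
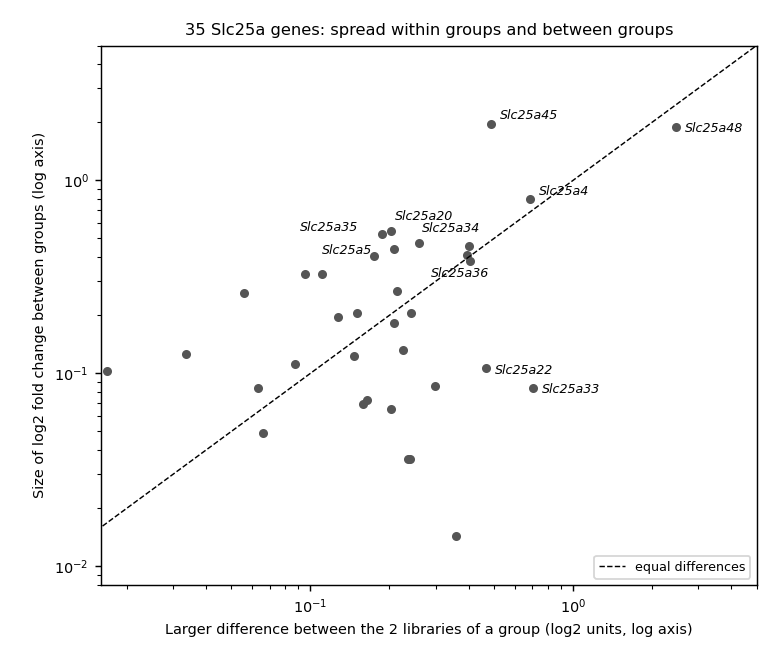
For each of the 35 members, the larger difference between the 2 libraries of a group (x axis) against the size of the log2 fold change between groups (y axis), both on log axes, with a dashed line where they are equal. The 16 members below the line, Slc25a48 at the far right among them, varied more within a group than between groups, and Slc25a45 has the largest difference between groups on this log2(FPKM + 1) scale.

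In many members the spread within a group was as large as the difference between groups. In 16 of the 35 members the larger difference between 2 libraries of 1 group exceeded the log2 fold change. The share of all genes for this count, and for the sign changes below, is not given here. Neither count can therefore be read as particular to the family. Slc25a48, Slc25a33, Slc25a22, Slc25a37 and Slc25a24 were among these, while Slc25a45, Slc25a20, Slc25a35 and Slc25a5 were not. Leaving out each library in turn turned the sign of the fold change in 9 members (Slc25a3, Slc25a10, Slc25a22, Slc25a28, Slc25a32, Slc25a33, Slc25a37, Slc25a38 and Slc25a39), all of which had groups that overlapped.

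Summed over the family, levels were 2058 and 2335 FPKM in Apc Min against 2455 and 2666 FPKM in the libraries labelled Zmynd8 IEC-/-. Without Slc25a5 the sums were 1111 and 1241 FPKM against 1166 and 1177 FPKM, and the groups overlapped. Slc25a5 alone made up 46.0% and 46.9% of the family's FPKM in Apc Min, against 52.5% and 55.9% under the Zmynd8 IEC-/- label. Slc25a3 made up 16.4% to 18.5%. At the other end, 11 of the 35 members were under 5 FPKM in mean.

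Other mitochondrial genes stood in both directions too. Of 13 genes of mitochondrial content, 4 stood higher in all pairings of libraries (Atp5b, Sdha, Ppargc1a and Esrra; 30.8%, against 14.9% of all genes), 4 lower (Tomm40, Hspd1, Hspa9 and Ppargc1b; 30.8%, against 48.5% of all genes) and 5 overlapped; none passed in either direction, and the list's median was 0.01. Among the 6 measured genes that insert carriers into the inner membrane, 3 stood lower in all pairings (Timm9, Timm10b and Timm22; 48.5% of all genes did), none passed, and the median was -0.20, beside -0.15 over all genes; 3 of the 6 turned above 0 after median-ratio scaling (Timm10, Agk and Tomm70a). The uncoupling protein Ucp2, a family member under another name, stood at 266 and 238 FPKM in Apc Min against 226 and 233 FPKM in the libraries labelled Zmynd8 IEC-/- (-0.13, SE 0.12), and its value turned to 0.04 after median-ratio scaling. Mtch1, a carrier-like protein of the outer membrane, stood at 54.8 and 53.0 FPKM in Apc Min against 46.2 and 44.2 FPKM in the libraries labelled Zmynd8 IEC-/- (-0.25, SE 0.09, limma adjusted p = 0.180). Of 10 further transport genes of mitochondria, Sfxn1, which imports serine, had the smallest p. It stood at 43.8 and 42.9 FPKM in Apc Min against 65.7 and 70.6 FPKM in the libraries labelled Zmynd8 IEC-/- (0.64, SE 0.10, limma adjusted p = 0.0705).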

How the data were processed

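The table deposited by the authors gives each gene's expression in each of the 4 libraries and the group means. Its headers also name a log2 ratio, a p-value and a q-value for the authors' own comparison. Expression carries no unit in the deposited file and was read as FPKM, since multiplying by a length per gene and a total per library returned whole reads, within 0.002, for 13357 of 13359 genes. The labels' protocols name an NEBNext Ultra kit and a HiSeq3000, and the submitters' processing notes HISAT2, BWA, SICER, mm10 and hg38 without roles. No source used here gives the counting tool, the annotation, the use of strand or the authors' test. Of 13527 entries, 168 exact repeats were dropped, and 0 columns of per-sample values were left unused.

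The genotypes were compared on log2(FPKM + 1), a scale that understates the change of low genes, by limma 3.58.1 (R 4.3.3) with genotype as the only term, a trend of variance on mean and robust moderation. A gene entered if 2 or more libraries had 1 FPKM or more. Benjamini-Hochberg adjustment ran over all 12948 genes tested; the threshold was 0.05 and intervals cover 95%. On simulated data, the read recovery returned the exact reads for 95.7% of 600 genes. The test recovered 30.3% of simulated 2-fold changes and 80.8% of 4-fold changes, with 13 false calls in a fit of 12726 genes. A member that changed 2-fold or less could therefore fail to pass. Alternatives were a pseudocount of 0.1, no filter or a mean of at least 5 FPKM, median-ratio scaling, quantile normalization, limma without trend, voom on recovered reads, a replicate block and each library left out. Members with values in each library are up to 10 in each direction with the largest difference among those whose groups did not overlap (9 on the higher side), the 5 with the highest mean, those that varied more within a group than between groups, and some others. The members and the partner and marker lists were chosen with earlier results of these data known. Gene coordinates are those of the table; promoter sequences are from RefSeq (GRCm38.p6) and matched 27 members by symbol. The values of 1 member and of 1 partner gene are not reported here; both stay in the counts and medians.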

Additional observations from a re-analysis of the deposited data

How the results depend on the processing

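Over all genes, 94 passed the adjusted test; the count was 1 with no filter on low values, 2 with a mean of at least 5 FPKM, 11 without trend or robust moderation, 85 with a pseudocount of 0.1, 64 after median-ratio scaling, 66 after quantile normalization and 207 with voom. With each library left out it ran from 0 (either library labelled knockout left out) to 616 (without Apc Min replicate 2), the arm with 1 library being assumed to vary like the other. The cause was not tested. With the replicate number as a block it was 0. No label says what a replicate number marks. The differences between replicates 1 and 2 in the 2 groups had a correlation of 0.05 across genes. This value cannot exclude a shared litter, day or batch. As no member passed in the main fit and no gene with the block, the block could change no call of a member. Slc25a45 alone passed with voom (1 member called higher); with each library left out, 0 to 1 member passed on the lower side (Slc25a17). Members higher in all pairings numbered 14 after median-ratio scaling, 14 with voom and 10 to 14 with a library left out, against 9, and those lower in all pairings numbered 7 on the median-ratio scale, against 12, and 13 to 18 with a library left out; fewer libraries make fewer pairings. The members' median was 0.094 after quantile normalization and -0.083 to -0.036 with a library left out.

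Signs of small fold changes turned in 5 members after rescaling. Under median-ratio scaling, quantile normalization and voom, in that order, Slc25a25 gave 0.024, 0.046 and 0.026, Slc25a46 gave 0.060, 0.037 and 0.062, Slc25a32 gave 0.053, 0.094 and 0.067, Slc25a38 gave 0.076, 0.099 and 0.088, and Slc25a26 gave 0.052, 0.062 and 0.088. With each library left out the ranges that crossed 0 were -0.24 to 0.063 for Slc25a32, -0.15 to 0.0099 for Slc25a38, -0.16 to 0.19 for Slc25a37, -0.083 to 0.16 for Slc25a28, -0.081 to 0.15 for Slc25a10, -0.036 to 0.17 for Slc25a39, -0.0091 to 0.16 for Slc25a3, -0.27 to 0.44 for Slc25a33 and -0.13 to 0.34 for Slc25a22. The filter on a mean of 5 FPKM left 24 members to test. The lowest member value rested on 110 reads.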
